A study of Rattus norvegicus with 304 samples.

Results

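Cyp1a1 is 1 of 50 target genes measured by real-time PCR in rat liver in a comparison of a pair of PCR platforms, and its values were taken by gene symbol from every strain, time and dose group. The gene has 72 of the 3157 deposited fold changes, 36 on the OpenArray, a nanolitre plate run by a service provider, and 36 on the 7900HT, a plate-based real-time instrument. The OpenArray carried 49 targets, the 7900HT carried 39, and 38 were on both. Cyp1a1 encodes a cytochrome P450 that oxidises planar aromatic compounds. It is the classical target of the aryl hydrocarbon receptor (AHR), a ligand-activated factor that pairs with ARNT and binds response elements upstream of its target genes. Liver Cyp1a1 is known to be scarce without a ligand and to rise steeply after dioxin exposure. In the RefSeq gene table for GRCr8 it has the gene identifier 24296, and Cyp1a2 and Edc3 are its protein-coding neighbours. The OpenArray assay is named Rn00487218_m1.

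The animals were male rats of 10 to 12 weeks of age, of the Long-Evans strain, labelled as sensitive to 2,3,7,8-tetrachlorodibenzo-p-dioxin (TCDD), and the Han/Wistar strain, labelled as resistant to it. Both received TCDD or its vehicle, corn oil, once by oral gavage. In the dose arm, livers were taken 19 h after 0.001, 0.01, 0.1, 1, 10, 100 or 1000 µg/kg in both strains, 3000 µg/kg in Han/Wistar alone and 50 µg/kg in Long-Evans alone. In the time arm, livers were taken after 100 µg/kg TCDD at 3, 6, 10, 19, 96 and 240 h in both strains, and at 1.5 and 384 h in Han/Wistar alone. Corn oil groups were taken at 19, 96 and 240 h in both strains and at 1.5 and 384 h in Han/Wistar. Groups held 3 to 7 animals, with 150 samples on the OpenArray and 154 on the 7900HT, and 150 sample titles occur on both. Each platform thus had 20 Han/Wistar and 16 Long-Evans groups.

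Each value is 1 log2 fold change per group, set against the 19 h corn oil group of its strain, where every target is 0 by construction. All groups of a strain on a platform therefore share that control, and an error in it moves all of them together. No value per animal could be tied to a group, so the error within a group is unknown and the groups served as the units of every test. The only internal measure of error is how far corn oil groups lie from 0 and from each other. In bulk liver RNA, fewer cells with the transcript and less transcript per cell cannot be told apart. The labelled tissue could not be checked, because values are relative and 1 of 16 liver cell markers listed for that purpose, Mug1, was measured.

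At 19 h, Cyp1a1 on the OpenArray was not above the highest vehicle group at 0.001 and 0.01 µg/kg, rose steeply between 0.01 and 1 µg/kg in both strains, and stayed level above that. In Han/Wistar the authors' deposited table gives log2 fold changes of 0.92 at 0.001 µg/kg, 1.91 at 0.01, 7.02 at 0.1, 9.46 at 1, 9.38 at 10, 9.99 at 100, 9.59 at 1000 and 9.71 at 3000 µg/kg. In Long-Evans the authors' deposited table gives -1.61 at 0.001 µg/kg, 1.32 at 0.01, 6.45 at 0.1, 8.66 at 1, 9.07 at 10, 9.23 at 50, 9.47 at 100 and 9.16 at 1000 µg/kg. Both of the lowest dose groups of each strain lay at or below the highest corn oil group of that strain (3.47 in Han/Wistar and 2.16 in Long-Evans, by the authors' deposited table), and every group from 0.1 µg/kg up lay above it. The Long-Evans group at 0.001 µg/kg lay below all 3 corn oil groups of its strain. The 0.1 µg/kg group exceeded that vehicle value by 3.55 log2 units in Han/Wistar and by 4.29 in Long-Evans, computed from the authors' deposited table.

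**Figure D1:**
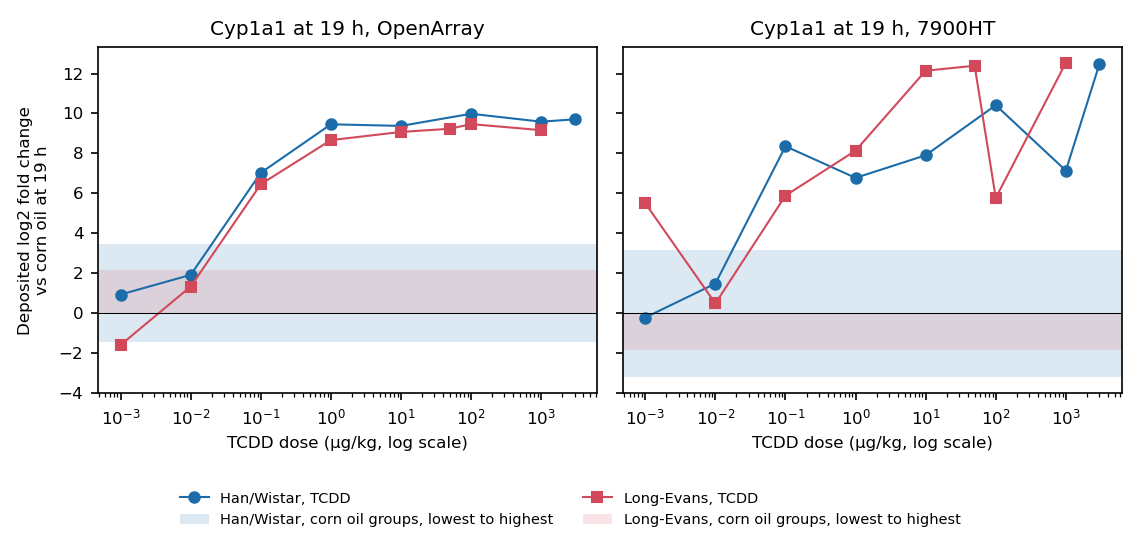
Cyp1a1 log2 fold change against corn oil at 19 h (vertical axis) by TCDD dose in µg/kg (log scale) for the OpenArray (left) and the 7900HT (right); points are 1 deposited value per group and shaded bands run from the lowest to the highest corn oil group of each strain. OpenArray values climb between 0.01 and 1 µg/kg and stay between 8.66 and 9.99 from 1 µg/kg up, whereas 7900HT values in that range lie between 5.77 and 12.54.

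The steepest step was that from 0.01 to 0.1 µg/kg. From the authors' deposited table this step was 5.12 log2 units, or 34.7-fold, in Han/Wistar and 5.13 log2 units, or 35.0-fold, in Long-Evans. The next step, to 1 µg/kg, was 2.43 log2 units in Han/Wistar and 2.21 in Long-Evans in values computed from the authors' deposited table. Expressed as linear folds, the 0.1 µg/kg group reached 16.5% of the mean of the 5 groups at 1 µg/kg or more in Han/Wistar and 15.7% in Long-Evans, from the authors' deposited table. At 1 µg/kg the same percentage was 89.1% in Han/Wistar and 72.9% in Long-Evans, from the authors' deposited table. A straight line between the 0.1 and 1 µg/kg values, on log scales of dose and fold, crossed 50% of that mean at 0.454 µg/kg in Han/Wistar and 0.568 µg/kg in Long-Evans. With no dose measured between those 2 points and no error within groups, these crossing points have no interval and their order was not tested.

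From 1 µg/kg up, the 5 OpenArray values of Han/Wistar averaged 9.62 in the authors' deposited table, which is 788-fold, and the highest was 1.53-fold the lowest. The 5 Long-Evans values averaged 9.12, which is 557-fold, and spanned 1.75-fold in the authors' deposited table. The spread over these doses was smaller than that of the corn oil groups, which by the authors' deposited table differed by 4.95 log2 units in Han/Wistar and 2.16 in Long-Evans.

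The dose trend on the OpenArray passed the test in both strains. Spearman's rank correlation of the deposited value against dose over 8 groups was 0.90 in Han/Wistar (exact permutation over 40320 orders, two-sided p = 0.00456, Benjamini-Hochberg adjusted p = 0.0160 over 49 targets). In Long-Evans the rank correlation was 0.93 (exact permutation p = 0.00223, adjusted p = 0.00684). Many targets passed the same test: 59.2% did in Han/Wistar, 38.8% rising and 20.4% falling, and 79.6% did in Long-Evans, 53.1% rising and 26.5% falling. Those shares depend on the scaling. The median of the 47 targets with a value in every group was itself 0.23 (Han/Wistar) or 0.56 (Long-Evans) at 100 µg/kg and 19 h. With each group centred on the mean of all targets, 8 targets rose and 20 fell in Han/Wistar and 10 rose and 19 fell in Long-Evans, beside 19 and 10, and 26 and 13, as deposited. With the median, the excess of falling targets was smaller in Han/Wistar and absent in Long-Evans. Median centring left 14 rising and 17 falling Han/Wistar targets, and for Long-Evans 18 rising and 17 falling. At 100 µg/kg and 19 h, median-centred Cyp1a1 was 9.76 (Han/Wistar) or 8.91 (Long-Evans), from the authors' deposited table. The Han/Wistar call was lost when each group was centred on the mean of those 47 targets (rank correlation 0.74, adjusted p = 0.0749 by exact permutation) or on their median (rank correlation 0.69, adjusted p = 0.0945). It was also lost without any 1 of the 0.001, 0.01, 0.1 or 1 µg/kg groups, with adjusted p between 0.0507 and 0.0556 and rank correlations between 0.86 and 0.89.

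On the 7900HT the same doses gave values out of dose order. In Han/Wistar the authors' deposited table gives -0.23 at 0.001 µg/kg, 1.47 at 0.01, 8.36 at 0.1, 6.77 at 1, 7.90 at 10, 10.42 at 100, 7.14 at 1000 and 12.46 at 3000 µg/kg. In Long-Evans the authors' deposited table gives 5.50 at 0.001 µg/kg, 0.47 at 0.01, 5.88 at 0.1, 8.14 at 1, 12.14 at 10, 12.39 at 50, 5.77 at 100 and 12.54 at 1000 µg/kg. The lowest Long-Evans dose thus stood near the values at 0.1 and 100 µg/kg. The values from 1 µg/kg up of the authors' deposited table spanned 51.5-fold in Han/Wistar and 110-fold in Long-Evans.

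By exact permutation, the rank correlation over dose on the 7900HT was 0.76 in Han/Wistar (p = 0.0368, adjusted p = 0.159 over 39 targets) and 0.74 in Long-Evans (p = 0.0458, adjusted p = 0.358). Neither passed after adjustment, beside 2.56% of all targets that passed in Han/Wistar and 0.0% that did in the other strain.

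The rank of Cyp1a1 among all targets varied at the lowest doses. At 0.001 µg/kg it was 4th in Han/Wistar and 45th of 48 in Long-Evans on the OpenArray, and 12th and 3rd on the 7900HT. At 0.01 µg/kg it was 2nd and 1st on the OpenArray and 4th and 7th on the 7900HT. At 0.1 µg/kg it was the highest of all targets in both strains on both platforms. In the authors' deposited table for the OpenArray its log2 fold change exceeded that of the next target by 5.08 in Han/Wistar, where Cyp1b1 followed, and by 2.67 in Long-Evans, where Ahrr followed. In the authors' deposited table for the 7900HT the margin was 5.83 in Han/Wistar over Nfe2l2 and 4.05 in Long-Evans over Derl1. These are differences between fold changes, not between transcript levels, and no test was made of them.

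At 100 µg/kg, Cyp1a1 on the OpenArray was already above the vehicle groups at the first time sampled, was near its final value by 6 h and stayed there to the last time sampled, 384 h in Han/Wistar and 240 h in Long-Evans. In Han/Wistar the authors' deposited table gives 5.63 after 1.5 h, 8.50 after 3 h, 9.96 after 6 h, 9.37 after 10 h, 9.99 after 19 h, 10.06 after 96 h, 9.84 after 240 h and 9.97 after 384 h. In Long-Evans the authors' deposited table gives 7.85 after 3 h, 9.11 after 6 h, 9.24 after 10 h, 9.47 after 19 h, 9.50 after 96 h and 9.29 after 240 h. The early groups are the low ones: as a linear fold, the 3 h group stood at 38.7% of the mean from 6 h on in Han/Wistar and at 36.0% in Long-Evans, from the authors' deposited table. The 1.5 h Han/Wistar group stood at 5.33% of that mean, from the authors' deposited table. From 6 h on, the 6 Han/Wistar values spanned 1.62-fold and the 5 Long-Evans values 1.31-fold in the authors' deposited table.

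**Figure D2:**
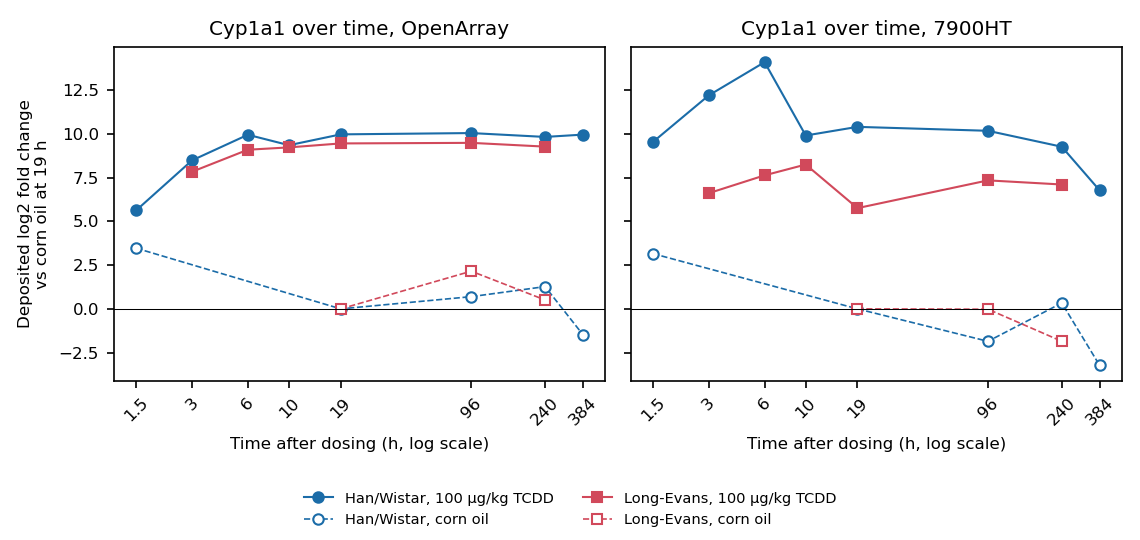
Cyp1a1 log2 fold change against corn oil at 19 h (vertical axis) by hours after dosing (log scale) on the OpenArray (left) and the 7900HT (right); filled points are 100 µg/kg TCDD groups, open points are corn oil groups and each point is 1 deposited value. OpenArray values stay between 9.11 and 10.06 from 6 h on in both strains, and the Han/Wistar corn oil group at 1.5 h lies at 3.47.

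The vehicle groups themselves moved. In Han/Wistar the authors' deposited table for the OpenArray gives corn oil values of 3.47 after 1.5 h, 0.70 after 96 h, 1.27 after 240 h and -1.48 after 384 h. In Long-Evans the authors' deposited table for the OpenArray gives 2.16 at 96 h and 0.51 at 240 h. Cyp1a1 was among the targets whose vehicle values moved most: the standard deviation between the 5 Han/Wistar corn oil groups was 1.82, the 3rd largest of 49 targets, against a median of 0.21 over targets. Between the 3 Long-Evans corn oil groups it was 1.13, the 4th largest of 49, against a median of 0.14. Without the 1.5 h group the Han/Wistar value was 1.19.

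The corn oil group at 1.5 h was the highest Cyp1a1 vehicle value and rested on 3 animals. Cyp1a1 had the highest value of 48 targets there, and the next, Inmt, stood at 0.46 in the authors' deposited table for the OpenArray. Other AHR targets were not raised with it on that platform: the authors' deposited table gives -0.71 for Cyp1a2, -0.59 for Cyp1b1, -0.12 for Nqo1 and -0.20 for Tiparp. On the 7900HT the same group had 3.16 for Cyp1a1 in the authors' deposited table, where it was 4th of 39 targets behind Nfe2l2 at 4.33, Tiparp at 4.12 and Ugt1a1 at 3.34. There Cyp1a2 stood at 2.31, Nqo1 at 2.62 and Cyp1b1 at 1.24, unlike on the OpenArray, against a median of -1.23 over targets. Aldh3a1 stood at 0.26 and Ahrr at -10.89, the lowest, in the authors' deposited table.

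Set against the corn oil group of its own time, the TCDD group at 1.5 h differed far less than the later ones. The difference between the 100 µg/kg and the corn oil group of Han/Wistar, from the authors' deposited table for the OpenArray, was 2.16 after 1.5 h, 9.99 after 19 h, 9.36 after 96 h, 8.57 after 240 h and 11.45 after 384 h. In Long-Evans the difference, from the authors' deposited table for the OpenArray, was 9.47 after 19 h, 7.34 after 96 h and 8.78 after 240 h. The fold at 1.5 h was thus 4.48 against same-time vehicle and 49.7 against vehicle at 19 h in the authors' deposited table. No same-time vehicle was measured at 3, 6 or 10 h.

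The mean of the 100 µg/kg groups exceeded that of the corn oil groups by 8.37 log2 units in Han/Wistar on the OpenArray (8 against 5 groups, exact permutation over 1287 splits, two-sided p = 0.000777, adjusted p = 0.00952). In Long-Evans the difference was 8.19 (6 against 3 groups, exact permutation p = 0.0119, the smallest that 84 splits allow, adjusted p = 0.0365). Of the 49 targets, 55.1% passed in Han/Wistar, 53.1% with higher and 2.04% with lower values, and 32.7% in Long-Evans, 30.6% with higher and 2.04% with lower values. With each group centred on the mean of all targets, 8 Han/Wistar targets were higher and 27 lower, while 9 Long-Evans targets were higher and 20 lower, and Cyp1a1 stayed among the higher ones in both. Median centring instead left more targets higher than lower: 16 against 12 for Han/Wistar, and for Long-Evans 11 against 6. The Cyp1a1 values of the TCDD and corn oil groups did not overlap in either strain, which was not particular to Cyp1a1. In Long-Evans Cyp1a2, Ahrr, Tiparp, Nqo1, Aldh3a1 and Nfe2l2 had the same smallest p, which only groups without overlap can reach. Cyp1b1 and Ugt1a1 did not reach that p, but a larger p does not show that their groups overlapped. In Han/Wistar Tiparp had the p of Cyp1a1. In Long-Evans 32.7% of all 49 targets had the smallest p of 0.0119 by exact permutation. The full share without overlap over all targets was not counted. Without both 1.5 h groups, a choice made after seeing the data, the Han/Wistar difference was 9.55 (exact permutation, adjusted p = 0.0106). The Long-Evans call was lost without any 1 of the TCDD groups at 6, 10, 19 or 96 h or of the 3 corn oil groups, with differences from 7.74 to 8.82 and adjusted p up to 0.109. The exact permutation p was then 0.0179 without a TCDD group and 0.0357 without a corn oil group, the smallest that the remaining splits allow. The lost calls therefore do not show that the difference rests on any 1 group.

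On the 7900HT Cyp1a1 was also above vehicle at every time, but with another shape. In Han/Wistar the authors' deposited table for the 7900HT gives 9.55 after 1.5 h, 12.22 after 3 h, 14.12 after 6 h, 9.92 after 10 h, 10.42 after 19 h, 10.19 after 96 h, 9.28 after 240 h and 6.78 after 384 h. In Long-Evans the authors' deposited table for the 7900HT gives 6.62 after 3 h, 7.64 after 6 h, 8.26 after 10 h, 5.77 after 19 h, 7.35 after 96 h and 7.12 after 240 h. The 6 h group was the highest in Han/Wistar and the 384 h group the lowest, whereas on the OpenArray both lay on the level stretch.

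Corn oil values on the 7900HT were 3.16 after 1.5 h, -1.86 after 96 h, 0.34 after 240 h and -3.24 after 384 h in Han/Wistar, per the authors' deposited table. In Long-Evans they were -0.02 after 96 h and -1.86 after 240 h, per the authors' deposited table. Against vehicle of the same time the 384 h difference in Han/Wistar was 10.02 and the 1.5 h difference 6.39, from the authors' deposited table for the 7900HT. The low value at 384 h came with a low vehicle value at that time. By exact permutation, the mean difference from corn oil on the 7900HT was 10.63 in Han/Wistar (p = 0.000777, adjusted p = 0.0101) and 7.75 in Long-Evans (p = 0.0119, adjusted p = 0.0663). The background was 35.9% of 39 targets in Han/Wistar, 15.4% with higher and 20.5% with lower values, and 0.0% in Long-Evans. With each group centred on the mean of all targets, 6 targets were higher and 13 lower in Han/Wistar, and in Long-Evans 4 were higher, Cyp1a1 among them (6.94, exact permutation, adjusted p = 0.0464), and 6 lower.

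All groups were ordered by level, and each gap was set beside the standard deviation between corn oil groups. Of the 19 gaps between neighbouring Han/Wistar groups on the OpenArray, 1 was larger than that value of 1.82: the gap of 2.16 between the TCDD group at 1.5 h and the corn oil group at 1.5 h in the authors' deposited table. The count depends on the 1.5 h corn oil group. Without it the standard deviation was 1.19, and gaps of 1.47, 1.39 and 1.48 in the authors' deposited table also exceeded it. The gap of 1.57 did too, but like that of 2.16 it has the left-out group at 1 end. In Long-Evans 3 of 15 gaps were larger. The largest was 4.29 between the 0.1 µg/kg group and the highest corn oil group, and another, of 1.40, lay between the 100 µg/kg group at 3 h and the 0.1 µg/kg group, in the authors' deposited table. The other, of 1.61, lay between corn oil at 19 h and the 0.001 µg/kg group, the lowest of all Long-Evans groups, in the authors' deposited table. No neighbouring groups at 1 µg/kg or more differed by more than that spread on the OpenArray in either strain. The spread was taken at vehicle levels and may not be the error of induced groups. Over the 5 groups from 1 µg/kg up at 19 h the standard deviation was 0.24 in Han/Wistar and 0.29 in Long-Evans.

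Both strains followed nearly the same Cyp1a1 curve on the OpenArray, with Long-Evans slightly below Han/Wistar. In all 12 matched TCDD groups the Long-Evans value was the lower, with a median difference (Long-Evans minus Han/Wistar) of -0.57 and a range from -2.53 to -0.12 in values from the authors' deposited table. At 0.1 µg/kg the difference was -0.57, at 1 µg/kg it was -0.79, at 100 µg/kg and 19 h it was -0.52 and at 240 h it was -0.55, from the authors' deposited table. Because each strain is set against its own vehicle group at 19 h, a difference in that 1 group would shift all 12 the same way, so the 12 are not independent. The corn oil groups differed between strains by 1.46 at 96 h and by -0.76 at 240 h in the authors' deposited table, which is more than most of the TCDD differences.

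Neither strain test passed after adjustment. The rank correlation of the strain difference over the 7 shared doses was 0.79 on the OpenArray (exact permutation over 5040 orders, p = 0.0480, adjusted p = 0.318 over 48 targets), and 0.0% of targets passed. The strain difference in the effect of 100 µg/kg against corn oil over the shared times was -0.78 (exact permutation p = 0.107, adjusted p = 0.477), and again 0.0% of 49 targets passed. An adjusted p above the threshold does not show that the strains respond alike.

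On the 7900HT 8 of the 12 matched TCDD groups were lower in Long-Evans and 4 were higher, with differences from -6.48 at 6 h to 5.73 at 0.001 µg/kg, per the authors' deposited table. All 6 groups at 100 µg/kg were lower in Long-Evans, and the groups at 1, 10 and 1000 µg/kg were higher. The rank correlation over dose was -0.14 (exact permutation p = 0.783, adjusted p = 0.877) and the difference over time was -3.78 (exact permutation p = 0.0476, adjusted p = 0.211). The share of targets that passed was 0.0% in both.

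**Figure D3:**
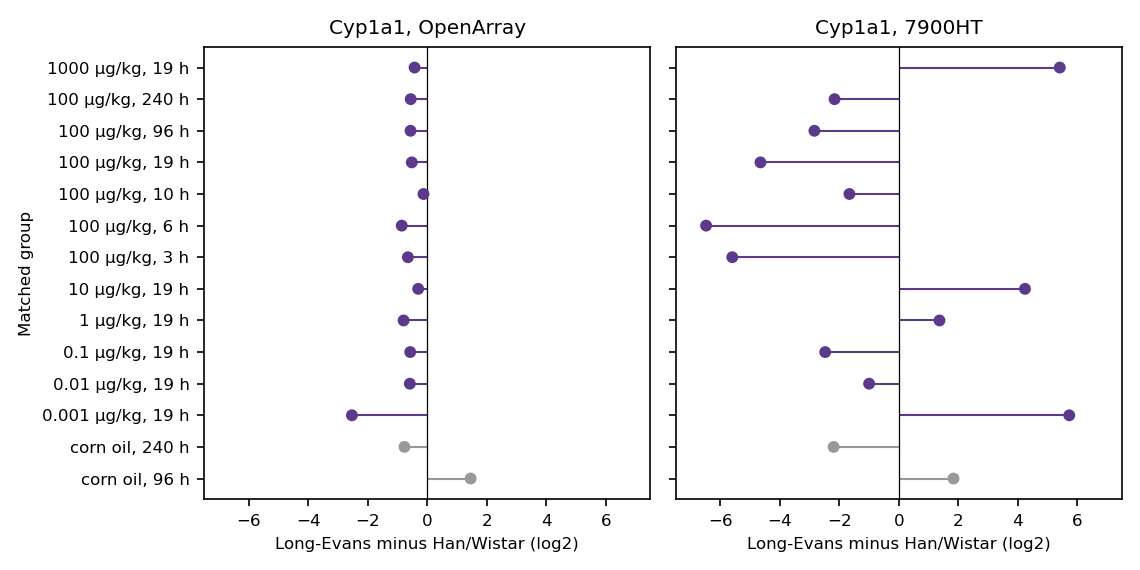
Difference in Cyp1a1 log2 fold change, Long-Evans minus Han/Wistar (horizontal axis), for each matched group of dose and time on the OpenArray (left) and the 7900HT (right); purple points are TCDD groups and grey points corn oil groups. OpenArray TCDD differences lie between -2.53 and -0.12, and 7900HT differences reach from -6.48 to 5.73.

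The title of the series names the evaluation of the platforms as its purpose. For Cyp1a1 both platforms gave values above every corn oil group from 0.1 µg/kg up, but they did not rank those groups alike. On the 7900HT the Long-Evans groups at 0.001 and 0.01 µg/kg also lay above the highest corn oil group. They stood at 5.50 and 0.47 against 0.0, per the authors' deposited table. Over groups at 1 µg/kg or more the median size of the gap between platforms was 2.57 log2 units in Han/Wistar (12 groups) and 2.16 in Long-Evans (10 groups), from the authors' deposited table of each platform. The rank correlation between platforms over those groups was 0.13 in Han/Wistar (permutation p = 0.685, adjusted p = 0.867) and -0.22 in Long-Evans (permutation p = 0.538, adjusted p = 0.682), with 100000 resamples and 38 targets. Of those targets 10.5% passed in the Han/Wistar and 18.4% in the Long-Evans groups, all with a positive rank correlation.

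Pearson's r was -0.0017 in Han/Wistar and 0.14 in Long-Evans. Without the 2 groups farthest from the median OpenArray value it was 0.38 and -0.64, so it depended on those groups. In this range the OpenArray values of Long-Evans spanned 1.65 log2 units and the 7900HT values 6.78, in the authors' deposited table of each platform.

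The Cyp1a1 gap between platforms was set beside that of other genes, in 2 sets of targets. The 7900HT table of cycle values holds 4 rows for each of 14 targets and 2 for each of 25; Cyp1a1 has 4, and 12 others with 4 rows are also on the OpenArray. In Long-Evans at 0.001 µg/kg, Cyp1a1 was higher on the 7900HT by 7.11 and the median gap of the 12 others was 1.99, from the authors' deposited table of each platform. In Han/Wistar at 6 h the Cyp1a1 gap was 4.15 and the median of the others 1.21, and at 384 h they were -3.19 and -3.14, from the authors' deposited table of each platform. The Cyp1a1 gap had the sign of the others' median in 15 of 15 Long-Evans and 14 of 19 Han/Wistar groups. A departure was the Han/Wistar corn oil group at 1.5 h, where the others' median was 2.74 and Cyp1a1 stood at -0.31, from the authors' deposited table of each platform.

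As a description over groups, which share a control and a plate format, Pearson's r between the Cyp1a1 gap and the others' median was 0.72 over 19 Han/Wistar groups and 0.92 over 15 Long-Evans groups (Spearman's rank correlation 0.80 and 0.60). With the median gap of the 25 targets with 2 rows r was -0.79 in Han/Wistar and -0.61 in Long-Evans. Subtracting the median of the 12 others lowered the median size of the Cyp1a1 gap from 1.47 to 1.22 log2 units in Han/Wistar and from 2.17 to 1.03 in Long-Evans, in values from the authors' deposited table of each platform. What the 2 kinds of rows stand for is not given in the sources used here, and their part in the result was not tested.

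**Figure D4:**
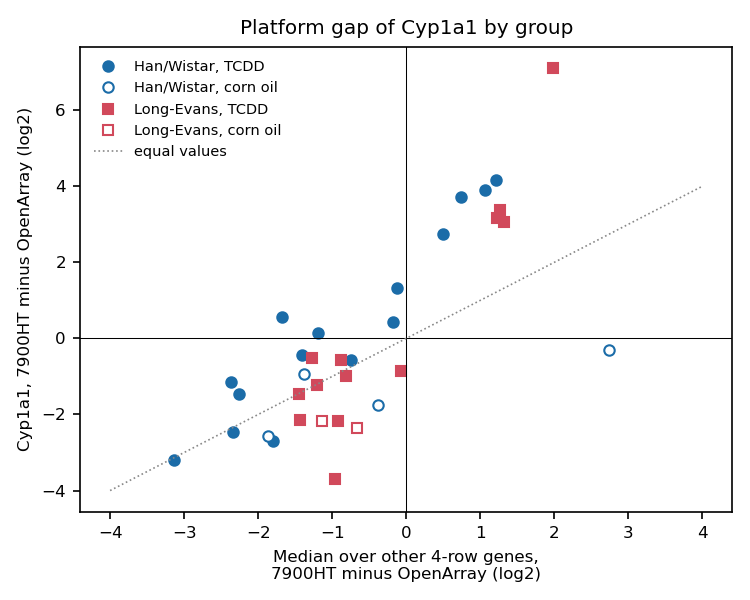
Cyp1a1 log2 fold change on the 7900HT minus that on the OpenArray (vertical axis) against the median of the same difference over the 12 other targets with 4 rows per gene (horizontal axis); each point is 1 group, filled for TCDD and open for corn oil, and the dotted line marks equal values. High gaps of Cyp1a1, such as 7.11 in Long-Evans at 0.001 µg/kg, lie at positive medians, and the open point at 2.74 is the Han/Wistar corn oil group at 1.5 h.

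Among the CYP1 enzymes, Cyp1a1 had the largest fold changes from 0.1 to 10 µg/kg on the OpenArray, in a description with no test between genes. At 0.1 µg/kg in Han/Wistar the authors' deposited table gives 7.02 for Cyp1a1, 1.26 for Cyp1a2, its neighbour and a liver P450 that activates aromatic amines, and 1.95 for Cyp1b1, the family member found mainly outside the liver. In Long-Evans at that dose the authors' deposited table gives 6.45 for Cyp1a1, 1.13 for Cyp1a2 and -2.17 for Cyp1b1. Cyp1b1 then caught up: at 100 µg/kg and 19 h the authors' deposited table gives Cyp1b1 10.62 in Han/Wistar, where Cyp1a1 is 9.99, and 9.60 in Long-Evans, where it is 9.47. On the 7900HT it did not: the authors' deposited table gives Cyp1b1 7.86 in Han/Wistar and 1.73 in Long-Evans there. Cyp1a1 stood at 10.42 and 5.77 in those groups, per the authors' deposited table. On the OpenArray Cyp1b1 was also above Cyp1a1 in Han/Wistar at 1000 and 3000 µg/kg (10.44 and 10.51, per the authors' deposited table). In Long-Evans it was below Cyp1a1 at 50 and 1000 µg/kg.

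Over time the genes diverged further on the OpenArray in values set against vehicle at 19 h. In Han/Wistar the authors' deposited table for the OpenArray gives Cyp1b1 4.60 after 3 h, 6.49 after 10 h, 13.12 after 96 h and 13.74 after 384 h, while Cyp1a1 stayed between 9.37 and 10.06 from 6 h on. Cyp1a2 stood at 1.16 after 3 h, 4.30 after 19 h, 5.10 after 96 h and 4.97 after 384 h in Han/Wistar, per the authors' deposited table. The Cyp1b1 vehicle value moved as well: in Han/Wistar the authors' deposited table for the OpenArray gives corn oil values of 4.38 for 96 h, 5.05 for 240 h and -1.10 for 384 h. In Long-Evans the authors' deposited table for the OpenArray gives it 2.79 with corn oil for 96 h and -0.95 for 240 h. Against vehicle of the same time, Han/Wistar Cyp1b1 on the OpenArray was 8.74 after 96 h, 8.39 after 240 h and 14.84 after 384 h. Cyp1a1 was 9.36, 8.57 and 11.45, so among these times Cyp1b1 was the larger only after 384 h. In Long-Evans, Cyp1b1 was 9.08 after 96 h and 13.22 after 240 h, beside 7.34 and 8.78 for Cyp1a1. On the 7900HT in Han/Wistar, same-time Cyp1b1 differences were 3.76 after 96 h, 9.29 after 240 h and 12.72 after 384 h. Those of Cyp1a1 were 12.05, 8.94 and 10.02, all computed from the authors' deposited table. Because a fold change depends on the vehicle level of each gene, these values do not rank the transcripts by abundance.

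**Figure D5:**
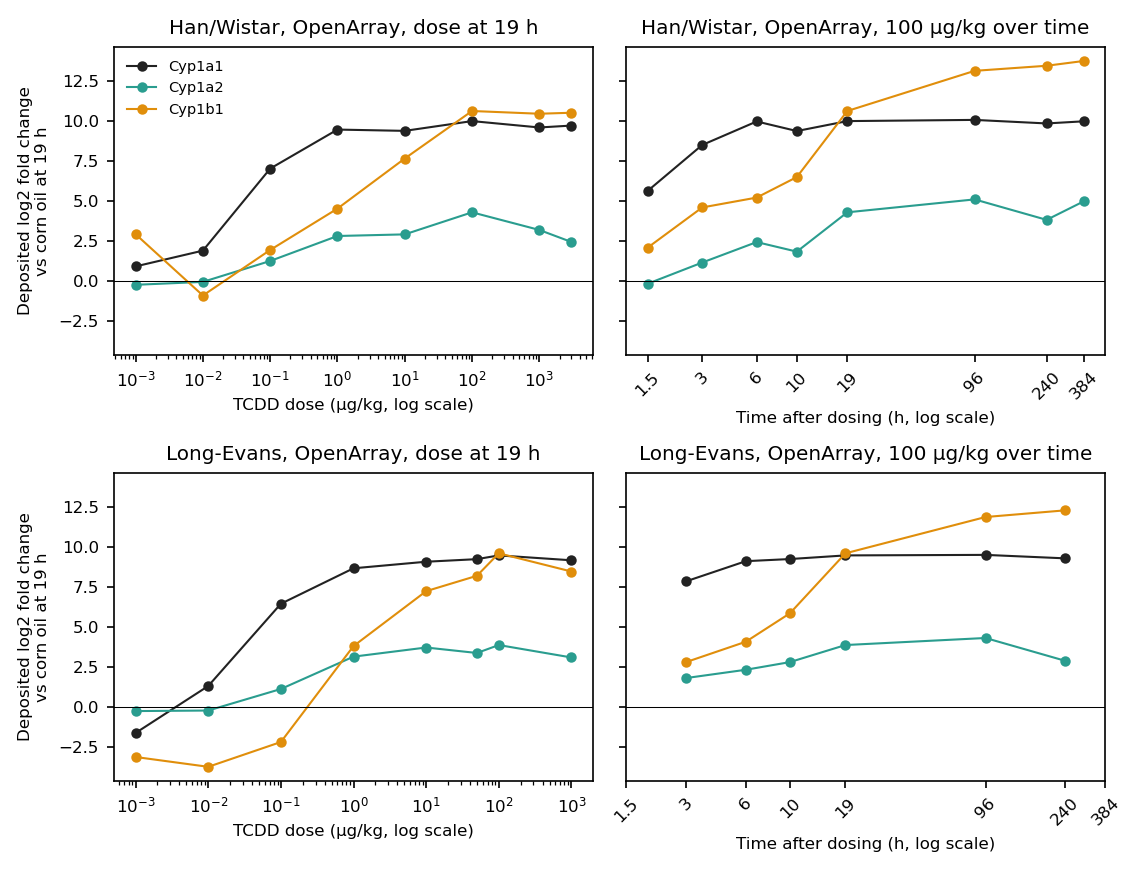
OpenArray log2 fold change against corn oil at 19 h (vertical axes) of Cyp1a1, Cyp1a2 and Cyp1b1 by TCDD dose at 19 h in µg/kg (left, log scale) and by hours after 100 µg/kg (right, log scale) in Han/Wistar (top) and Long-Evans (bottom); each point is 1 deposited value. Cyp1a1 is the highest of the 3 at 0.1 and 1 µg/kg. Set against vehicle at 19 h, Cyp1b1 lies above it from 19 h on, reaching 13.74 at 384 h in Han/Wistar. The Han/Wistar Cyp1b1 vehicle values, not drawn, were 4.38 at 96 h and 5.05 at 240 h.

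Among all targets Cyp1a1 was the highest in 6 of 12 Han/Wistar and 6 of 10 Long-Evans groups at 1 µg/kg or more on the OpenArray, and never lower than 5th. On the 7900HT it was the highest in 8 of 12 and 7 of 10 such groups and never lower than 2nd.

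Of 11 further genes listed as AHR targets, 8 were measured on the OpenArray. Among them were Ahrr and Tiparp, which repress AHR signalling, Nqo1, Aldh3a1 and Ugt1a1, which metabolise foreign compounds, and Nfe2l2, a regulator of antioxidant genes. Over dose, 5 of the 8 rose and 1, Ugt1a1, fell in Han/Wistar, and 6 rose and Ugt1a1 fell in Long-Evans. Over all 49 targets 38.8% rose and 20.4% fell in Han/Wistar, and 53.1% rose and 26.5% fell in Long-Evans. Cyp1a2 and Ahrr did not pass in Han/Wistar, nor did Cyp1a2 in Long-Evans. The list's median rank correlation was 0.86 in Han/Wistar and 0.88 in Long-Evans, beside 0.64 and 0.79 over all 49 targets. Over time, 7 of 8 in Han/Wistar and 6 of 8 in Long-Evans were higher with TCDD, beside 53.1% and 30.6% of all targets, with a median difference of 3.41 and 3.52 beside 0.58 and 0.63 over all targets. Cyp1a2 missed the dose call in both strains, with a rank correlation of 0.74 in each (exact permutation, Han/Wistar adjusted p = 0.0642, Long-Evans adjusted p = 0.0548). With each group centred on the mean of all targets the list's counts over dose were 5 higher and 1 lower in each strain, and over time 6 Han/Wistar members were higher and 1 lower, against 5 and 1 of the Long-Evans members.

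On the 7900HT, 1 of the 8, Cyp1b1, rose over dose in Han/Wistar and none did in Long-Evans, beside 2.56% and 0.0% of all 39 targets. Over time Cyp1a2, Cyp1b1 and Nqo1 were higher with TCDD in Han/Wistar, and none of the 8 passed in Long-Evans, beside 15.4% of all targets higher in the first strain and 0.0% in the second. Ahr, the receptor itself, was the only one of 7 listed signalling genes measured on the OpenArray. Its Han/Wistar values over the dose arm, per the authors' deposited table, lay between -0.68 and -0.04. Its dose trend passed in Long-Evans (rank correlation 0.76, exact permutation, adjusted p = 0.0462) and did not in Han/Wistar (rank correlation 0.57, adjusted p = 0.168). With each group centred on the mean of the targets with a value in every group, its Long-Evans rank correlation was -0.76, so its direction depends on the scaling.

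The targets with values most like Cyp1a1 over the 34 groups other than corn oil at 19 h were found by Pearson's r, as a description with no test. On the OpenArray these were Mawbp and Cyp1a2, each with r of 0.88, and Aldh3a1, also with 0.88, against a median of 0.53 over 48 targets. With each group centred on its mean, r was 0.28 for Mawbp, 0.81 for Cyp1a2 and 0.85 for Aldh3a1. On the 7900HT they were Cyp1a2 with 0.89, Nqo1 with 0.84 and Nfe2l2 with 0.72, against a median of -0.18 over 38 targets, and all 3 have 4 rows per gene there as Cyp1a1 does. Cyp1a2 is thus the gene among the first 3 on both platforms, but Nqo1 was close, being 4th on the OpenArray with r of 0.87. With each group centred on its mean, Nqo1 was 2nd on both, with r of 0.82 on the OpenArray and 0.83 on the 7900HT.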

How the data were processed

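Total liver RNA was reverse transcribed and run by real-time PCR, per the labels' protocols, with a delta-delta Ct setting stated for the 7900HT. The deposited tables hold 1 value M per gene and group, taken here as the authors' log2 fold change against the 19 h corn oil group of its strain; the log base is inferred from the size of the values. R 2.12.2 is named in the submitters' processing notes; reference genes, averaging over animals and the treatment of empty wells are not given there. The 304 columns of cycle values per animal were not used, because their codes match no sample label; only gene and assay names, deposited as other text, were read from those tables.

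Tests ran over groups for every target of a platform, with Benjamini-Hochberg adjustment and a threshold of 0.05: Spearman's rank correlation over dose, differences of group means over time, and the same for strain differences, each by exact permutation, and rank correlation between platforms by permutation. P-values measure the spread between groups, not between animals. The named genes were Cyp1a1, the other CYP1 genes, listed AHR targets and signalling genes, and the 3 targets most like Cyp1a1 on each platform. Cyp1a1 and all lists were chosen with earlier results of these data known. The tests were tested on simulated data. Alternatives were centring, linear-scale and rank measures, and leaving out groups. Centring used the mean or median of the targets with a value in every group, 47 on the OpenArray and 36 on the 7900HT. Python 3.11.15, numpy 2.4.6, pandas 2.3.3 and scipy 1.17.1 were used.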

Additional observations from a re-analysis of the deposited data

How the results depend on the processing

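No paired analysis was possible because each group has 1 deposited value and no value per animal. Centring each group on its mean or median gave rank correlations over dose on the OpenArray in Han/Wistar of 0.74 and 0.69, below the threshold, and on the 7900HT put the Long-Evans time difference past it, at 6.94 and 7.12 (exact permutation, both adjusted p = 0.0464). Against vehicle of the same time the Han/Wistar differences were 8.31 (OpenArray) and 9.56 (7900HT) and the Long-Evans OpenArray difference was 8.53, none past the threshold, since a sign permutation of 5 or 3 pairs cannot go below 0.0625 or 0.25. Without corn oil at 19 h, the Long-Evans OpenArray difference was 7.74 (exact permutation p = 0.0357, the smallest that the remaining splits allow, adjusted p = 0.0921). The sign turned for the rank correlation of the 7900HT strain difference over dose (0.21 and 0.14 when centred on the mean and median, and 0.071 when genes with 4 and with 2 rows were centred apart, chosen after seeing the data). It also turned for agreement between platforms in Han/Wistar by Pearson's r (-0.0017) and in Long-Evans by Pearson's r (0.14) and centring (0.37 and 0.14).

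Leaving out 1 group at a time, the rank correlation over dose ran from 0.86 to 0.96 (Han/Wistar) and 0.89 to 1.00 (Long-Evans) on the OpenArray and from 0.64 to 0.89 and 0.61 to 0.96 on the 7900HT. Time differences ran from 7.80 to 9.04 and 7.74 to 8.82 on the OpenArray and from 9.90 to 11.50 and 7.14 to 8.06 on the 7900HT. The strain rank correlation ran from 0.66 to 0.83 on the OpenArray and from -0.49 to 0.37 on the 7900HT, turning positive without 0.001 µg/kg (0.37) or 100 µg/kg (0.09). Strain differences over time ran from -1.27 to -0.16 on the OpenArray and from -4.82 to -2.80 on the 7900HT. The likeness of Mawbp fell to 0.28 when centred. Signal over background could not be assessed from fold changes.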
